A study of Rattus norvegicus with 6 samples.

Results

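Enzymes of xenobiotic metabolism were examined in the vestibular sensory epithelium of rats exposed to an ototoxic nitrile. They were the genes of the count table whose symbols named them as cytochromes P450 (Cyp), flavin monooxygenases (Fmo), aldehyde dehydrogenases (Aldh), epoxide hydrolases (Ephx), carboxylesterases (Ces), glutathione transferases (Gst of the alpha, kappa, mu, omega, pi, theta and zeta classes, and the membrane-bound Mgst), UDP-glucuronosyltransferases (Ugt) or sulfotransferases (Sult), together with Tst and Mpst, the sulfur transferases of cyanide detoxification. The rule used names only and found 158 of the 32883 genes in the table, all annotated as protein coding.

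The samples came from adult male Long-Evans rats. In the control group 3 rats drank plain water, and in the IDPN-4wk group 3 rats drank water containing 20 mM 3,3'-iminodipropionitrile (IDPN) for 4 weeks. IDPN damages the sensory hair cells (HCs) of the inner ear. Each library was made from the 2 utricles and 6 cristae of 1 rat, so it holds whole tissue with every cell type left after dissection. The animal codes of the 3 IDPN-4wk rats share a prefix that no control rat has, and whatever it marks cannot be told apart from treatment. Libraries held from 13358678 to 18561991 counts, of which the enzymes took from 0.605% to 0.721%. The HC markers Myo7a, Pou4f3 and Otof had counts in every library, and the 7 HC markers in the table summed to 1439 to 1512 CPM (counts scaled to a common library total) in control and 666 to 909 CPM after IDPN. In such bulk samples, fewer cells of a type and less RNA per cell cannot be told apart.

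Foreign small molecules are usually handled in stages. Phase I enzymes oxidise or hydrolyse them, phase II enzymes couple the product to glutathione, glucuronic acid or sulfate, and transporters export the conjugate. Most of this capacity is in the liver, and barrier epithelia carry a part of it. Several of the same families also act on the body's own compounds, such as retinoic acid, steroids and fatty acids. Oxidation of a nitrile can release cyanide, which Tst (rhodanese) and Mpst can convert to thiocyanate.

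Many of the enzymes were not measurable in this tissue. No library had a count for 45 of the 158 genes, among them Cyp7a1, the rate-limiting enzyme of bile acid synthesis, Cyp17a1 of steroid synthesis, Cyp2c7, Cyp2c13, Cyp3a18, Cyp4a1, Sult2a2 and Ugt2b. With 3 counts as the limit that a 0 allows, these genes could be at up to 0.155 CPM in the deepest library and 0.216 CPM in the shallowest. A further 30 genes had counts but were removed by the filter on low counts, with at most 17 counts in a library. The remaining 83 were tested, and these were 28 of 71 Cyp, 4 of 8 Fmo, 16 of 18 Aldh, 4 of 4 Ephx, 3 of 11 Ces, 16 of 22 Gst, 2 of 3 Mgst, 6 of 12 Sult and 2 of 7 Ugt genes, with Tst and Mpst. Counts were not scaled by transcript length, so levels are compared between groups and not between genes.

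The comparison asked which of these enzymes differ between IDPN-4wk and control epithelia. Genes were called upregulated or downregulated at a Benjamini-Hochberg adjusted p (edgeR Padj, over all 14352 genes tested) under 0.05 with a fold change over 1.5. Of the 83 enzymes, 7 were downregulated (Cyp2s1, Cyp19a1, Cyp4f4, Aldh1l1, Ces1a, Ces1d and Sult4a1) and 4 were upregulated (Gstm1, Gstm5, Gstt2 and Ephx3). The 11 calls are 13.3% of the enzymes tested, where 9.71% of all genes were called. Lower calls made 8.43% of the enzymes, beside 6.62% of all genes, and higher calls made 4.82%, beside 3.09%. Without the fold change criterion 26 enzymes (31.3%) passed, beside 19.4% of all genes, and the libraries of the groups did not overlap in 44 enzymes (53%), beside 37.8%. The median log2-Fold change was 0.02 over the 83 enzymes and also 0.02 over all genes tested. Leaving out a library changed these counts: without control replicate 2 there were 2 downregulated enzymes, and without IDPN-4wk replicate 1 there were 4 downregulated and 2 upregulated. When the fold change of 1.5 was itself the null hypothesis (glmTreat of edgeR), only Gstm5 of the enzymes passed, beside 3.16% of all genes. Gstm5 had no counts in control and passed the filter on low counts only through the IDPN-4wk group, so this pass is a description.

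**Figure D1:**
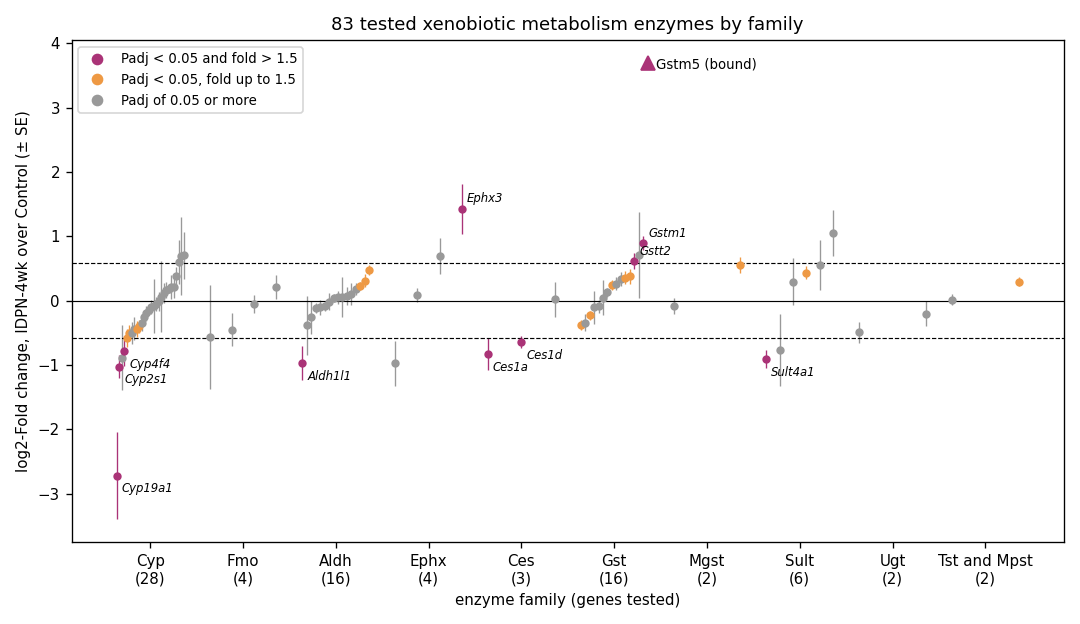
Log2-Fold change (vertical axis, IDPN-4wk over control, with SE) of the 83 tested enzymes, placed by family along the horizontal axis, with dashed lines at a fold change of 1.5. The 3 called Cyp genes and 2 called Ces genes lie under 0 and the 3 called Gst genes over 0. Gstm5, with 0 counts in every control library, is drawn as a triangle at its lower bound of 3.69.

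The plot of all tested genes against their mean level places the enzymes among them. The called enzymes include genes of few counts, such as Cyp19a1, with at most 26 counts in a library.

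**Figure D2:**
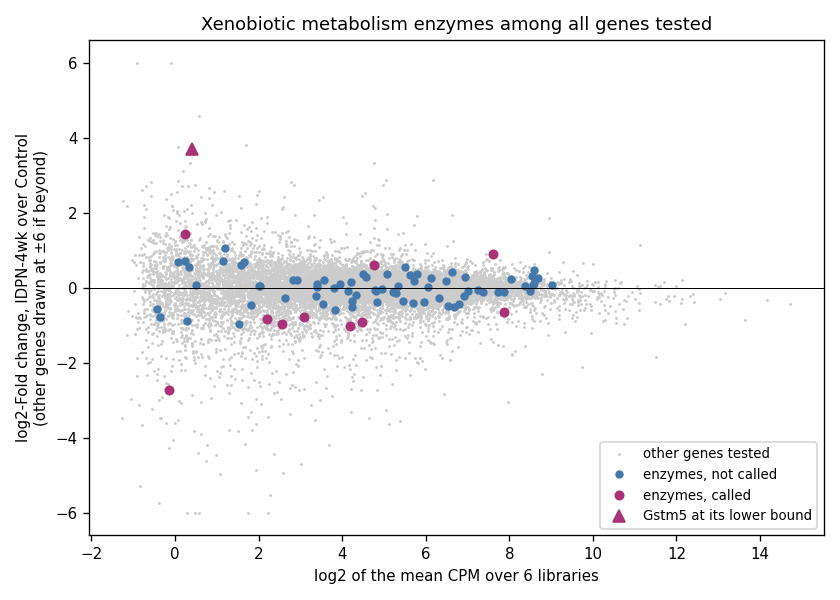
Log2-Fold change (vertical axis, IDPN-4wk over control) against the log2 of the mean CPM over the 6 libraries (horizontal axis) for the 14352 genes tested, with other genes in grey, uncalled enzymes in blue and the 11 called enzymes in purple. The uncalled enzymes lie among the other genes, and Gstm5 is drawn at its lower bound.

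Glutathione transferases couple glutathione to electrophiles, and the cytosolic mu, theta, alpha and pi classes are products of separate gene families. Of the 16 Gst genes tested, 3 were upregulated and 0 downregulated, beside 3.09% and 6.62% of all genes. One of the 3, Gstm5, passed the filter on low counts only through the IDPN-4wk group. Padj under 0.05, whatever the fold change, was reached by 8, of which 6 were higher and 2 lower. Of all genes, 19.4% reached it. Summed over the 22 genes, the Gst level was 1817, 1499 and 1766 CPM in control epithelia, against 1877, 1964 and 1883 CPM after IDPN, so that every IDPN-4wk library lay over every control library, at 113% of the control mean.

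Gstm1 (ENSRNOG00000029726), a mu class enzyme, had 159, 115 and 136 CPM in the control libraries and 267, 249 and 245 CPM in the IDPN-4wk libraries. The groups were well apart, and Gstm1 rose from 137 ± 22.3 to 254 ± 11.9 CPM (SD over n = 3 rats, log2-Fold change 0.89 ± 0.11 SE, edgeR Padj 3.03e-04). It was upregulated in each of the 6 fits that left out 1 library, at log2-Fold changes from 0.78 to 1.01. Gstm5 (ENSRNOG00000058357), of the same class, had 0 counts in all 3 control libraries and 42, 46 and 40 counts in the IDPN-4wk libraries, or 3.02, 2.37 and 2.58 CPM. With the floor of 3 counts per library in control, Gstm5 was at least 12.9-fold higher (edgeR Padj 2.36e-04). With 0 counts in control, Gstm5 passed the filter on low counts only through the IDPN-4wk group, so it had to differ to be tested at all, and this p is given as a description. The estimated counts divide reads that match several mu class genes, so the split between Gstm1, Gstm5 and their copies is uncertain. The 8 mu class genes together summed to 759, 657 and 702 CPM in control epithelia, against 899, 864 and 833 CPM after IDPN, a rise of the mean by 159 CPM to which Gstm1 gave 117 CPM and Gstm5 gave 2.66 CPM.

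Neighbours of Gstm1 in the genome were not called. In the gene order of the RefSeq annotation, Gstm3, Gstm2, Gstm1 and Gstm4 follow one another, and Gstm5 lies nearby on the same chromosome, beside a mu class gene named Gstm6l. The log2-Fold change was -0.09 for Gstm3 (edgeR Padj 0.584), 0.13 for Gstm2 (edgeR Padj 0.227) and 0.27 for Gstm4 (edgeR Padj 0.0911). Gstm6 was at 3.94 ± 0.277 CPM in control epithelia, against 4.05 ± 1.18 CPM after IDPN (SD over n = 3 rats).

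Promoters are shown for the upregulated Gstm1 and Gstm5, for their uncalled relative Gstm2 and for Cyp2s1, the P450 with the smallest p among the lower calls, so that the sequence around their starts can be compared. They run from 250 bases before to 50 bases after the start, 5′ to 3′ on the gene's strand, and are credited to RefSeq on build GRCr8, which is not the build of the counts. The RefSeq table had a promoter for 67 of the 83 tested enzymes and 7 of the 11 called ones, matched by symbol. Gstm1 is at chr2:198343334-198343633 (minus strand), Gstm5 at chr2:198219519-198219818 (plus strand), Gstm2 at chr2:198316868-198317167 (minus strand) and Cyp2s1 at chr1:90453024-90453323 (minus strand). Capitals mark matches on either strand to TGACNNNGC, the core of the antioxidant response element to which NRF2 binds, and to GCGTG, the core to which the aryl hydrocarbon receptor binds.
Gstm1: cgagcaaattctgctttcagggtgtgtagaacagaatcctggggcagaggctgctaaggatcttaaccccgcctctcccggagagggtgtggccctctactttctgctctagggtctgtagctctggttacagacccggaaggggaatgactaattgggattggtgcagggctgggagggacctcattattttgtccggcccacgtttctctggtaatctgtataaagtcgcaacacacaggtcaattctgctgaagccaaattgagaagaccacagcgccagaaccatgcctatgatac
Gstm5: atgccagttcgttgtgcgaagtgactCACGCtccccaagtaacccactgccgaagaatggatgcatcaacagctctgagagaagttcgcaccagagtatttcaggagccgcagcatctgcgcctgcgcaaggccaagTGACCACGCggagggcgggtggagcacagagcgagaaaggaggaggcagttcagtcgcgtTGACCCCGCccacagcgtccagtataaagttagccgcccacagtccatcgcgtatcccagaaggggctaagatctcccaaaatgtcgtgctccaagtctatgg
Gstm2: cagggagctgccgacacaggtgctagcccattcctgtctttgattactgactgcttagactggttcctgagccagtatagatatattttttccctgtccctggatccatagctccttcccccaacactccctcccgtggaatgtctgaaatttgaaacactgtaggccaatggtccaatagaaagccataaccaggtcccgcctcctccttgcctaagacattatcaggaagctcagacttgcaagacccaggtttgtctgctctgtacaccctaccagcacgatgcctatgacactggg
Cyp2s1: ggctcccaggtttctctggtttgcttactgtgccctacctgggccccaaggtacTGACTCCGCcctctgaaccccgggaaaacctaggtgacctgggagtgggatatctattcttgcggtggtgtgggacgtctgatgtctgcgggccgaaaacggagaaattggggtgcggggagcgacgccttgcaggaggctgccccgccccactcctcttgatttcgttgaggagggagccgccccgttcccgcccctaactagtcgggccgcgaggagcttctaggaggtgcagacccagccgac
In Gstm5, TGACNNNGC matched 113 and 53 bases before the start and GCGTG matched 224 and 109 bases before it, the last of these inside a TGACNNNGC match. Cyp2s1, which fell, had a TGACNNNGC match 196 bases before the start. Neither set of letters was in the windows of Gstm1 and Gstm2. Over all 33469 promoters of the table, 12.1% held TGACNNNGC and 29.7% held GCGTG. Among the 67 tested enzymes with a promoter, 10 (14.9%) and 31 (46.3%) did, and among the 7 called ones 2 (28.6%) and 4 (57.1%) did. The shares over the table count promoters, of tested genes or not, and those of the enzymes count tested genes. They are therefore not like for like. Such a match describes letters, and no binding was measured here.

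Of the 3 theta class genes tested, Gstt2 was upregulated. It had 21.0, 20.3 and 23.4 CPM in control epithelia, against 37.5, 32.8 and 28.6 CPM after IDPN (log2-Fold change 0.61 ± 0.12 SE, edgeR Padj 0.00654). Gstt2 fell under the fold change threshold when control replicate 2 (0.57) or IDPN-4wk replicate 1 (0.50) was left out. Gstt1 passed Padj but not the fold change, with 29.2, 29.7 and 29.8 CPM in control epithelia, against 38.8, 39.5 and 35.3 CPM after IDPN (log2-Fold change 0.36, edgeR Padj 0.0226). Gstt3, its neighbour in the genome, had a log2-Fold change of 0.34, at an edgeR Padj of 0.0582. In all 3 genes every IDPN-4wk library was over every control library. Over all genes tested, the groups did not overlap, in either direction, in 37.8%. The theta class sum was 94.7 ± 7.46 CPM in control epithelia, against 126 ± 5.12 CPM after IDPN (SD over n = 3 rats).

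No other glutathione transferase was called. Gsto2 was over the fold change threshold but not under the Padj threshold (log2-Fold change 0.71 ± 0.67 SE, edgeR Padj 0.497). Gstk1, the kappa class enzyme of mitochondria and peroxisomes, had 68.4, 74.6 and 69.2 CPM in control epithelia, against 53.7, 54.5 and 54.4 CPM after IDPN (log2-Fold change -0.38, edgeR Padj 0.00556). Gstp1, the pi class enzyme, was at 374 ± 29.1 CPM in control epithelia, against 445 ± 20.8 CPM after IDPN (SD over n = 3 rats, log2-Fold change 0.25, edgeR Padj 0.0468). Chosen after their values were seen, Gsto1 of the omega class (0.38, edgeR Padj 0.0394) and Gsta4, which acts on lipid aldehydes (-0.23, edgeR Padj 0.0414), complete the 5 Gst genes past Padj but not the fold change. The membrane-bound Mgst1 had 30.6, 41.1 and 37.9 CPM in control epithelia, against 53.3, 59.6 and 48.1 CPM after IDPN. Its log2-Fold change of 0.56 (SE 0.12, edgeR Padj 0.00974) was just under the threshold of 0.58, and it passed with library size alone (0.67) and when control replicate 2 (0.65) or IDPN-4wk replicate 3 (0.62) was left out.

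Cytochromes P450 are haem enzymes that insert oxygen into their substrates. Of the 28 tested, 3 were downregulated and 0 upregulated, beside 6.62% and 3.09% of all genes. All 7 with a Padj under 0.05, whatever the fold change, were lower, where 19.4% of all genes reached this Padj. Among all genes called, 68.1% were lower. The sum over the 71 Cyp genes was 1042, 971 and 886 CPM in control epithelia, against 868, 819 and 835 CPM after IDPN, at 87.0% of the control mean. The groups did not overlap in this sum with TMM, but they overlapped with library size alone, where it was 93.8%. Without regard to any test, 18 of the 28 Cyp genes and 41 of the 83 enzymes (49.4%) had a log2-Fold change under 0, beside 47.2% of all genes.

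Cyp2s1 (ENSRNOG00000020743), a P450 of epithelia, had 25.4, 25.5 and 21.9 CPM in control epithelia, against 13.7, 8.61 and 13.6 CPM after IDPN. It fell to 49.3% of the control level (log2-Fold change -1.03 ± 0.18 SE, edgeR Padj 0.00261) and was downregulated in each fit that left out 1 library, from -1.15 to -0.83. Cyp19a1 (ENSRNOG00000000196), aromatase, which makes oestrogens from androgens, had 1.42, 1.82 and 1.49 CPM in control epithelia, against 0.359, 0 and 0.386 CPM after IDPN (log2-Fold change -2.72 ± 0.68 SE, edgeR Padj 0.0180). The level was low, at 26 counts or fewer in every library, and the call was lost without control replicate 2 (edgeR Padj 0.0646) and without control replicate 3 (edgeR Padj 0.0528).

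The Cyp4f subfamily hydroxylates the end of fatty acid chains, leukotrienes among them. Cyp4f4 had 11.0, 10.8 and 10.5 CPM in control epithelia, against 5.10, 4.80 and 8.82 CPM after IDPN (log2-Fold change -0.79 ± 0.24 SE, edgeR Padj 0.0392). The third IDPN-4wk library was nearer to control than the other two. Cyp4f4 stayed downregulated without IDPN-4wk replicate 3 (-1.13) and lost the call without any other library, with edgeR Padj 0.0884, 0.0930 and 0.0881 without control replicates 1, 2 and 3 and 0.126 and 0.123 without IDPN-4wk replicates 1 and 2. It was also lost with library size alone (-0.68, edgeR Padj 0.0517). Cyp4f39 had a log2-Fold change of -0.58 ± 0.14 SE, at an edgeR Padj of 0.0177, just under the threshold, and was downregulated with DESeq2 (-0.59), with DESeq2 size factors (-0.59), and when control replicate 3 (-0.63) or IDPN-4wk replicate 2 (-0.70) was left out. Cyp4f6 had 55.5, 63.5 and 56.8 CPM in control epithelia, against 39.5, 45.9 and 47.7 CPM after IDPN (log2-Fold change -0.40, edgeR Padj 0.0162). For Cyp4f5 (-0.34), Cyp4f17 (-0.19) and Cyp4f1 (0.60) the edgeR Padj was from 0.105 to 0.279. Subfamily members resemble one another, and their sum of 131 ± 2.47 CPM in control epithelia, against 101 ± 7.10 CPM after IDPN (SD over n = 3 rats) depends less on how shared reads were divided.

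Past Padj but not the fold change were also Cyp2t1, with 22.6, 23.4 and 19.7 CPM in control epithelia, against 15.5, 14.8 and 16.2 CPM after IDPN (log2-Fold change -0.51, edgeR Padj 0.0153), and Cyp51, the lanosterol demethylase of cholesterol synthesis, with 116, 147 and 118 CPM against 107, 96.7 and 78.0 CPM (-0.43, edgeR Padj 0.0325). Cyp1b1, which had the highest mean CPM of the family, differed by less than its spread, at 156 ± 16.1 CPM in control epithelia, against 150 ± 23.3 CPM after IDPN (SD over n = 3 rats, log2-Fold change -0.06, edgeR Padj 0.769). The sign of this value turned with library size alone (0.05), and when control replicate 1 or IDPN-4wk replicate 3 was left out.

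**Figure D3:**
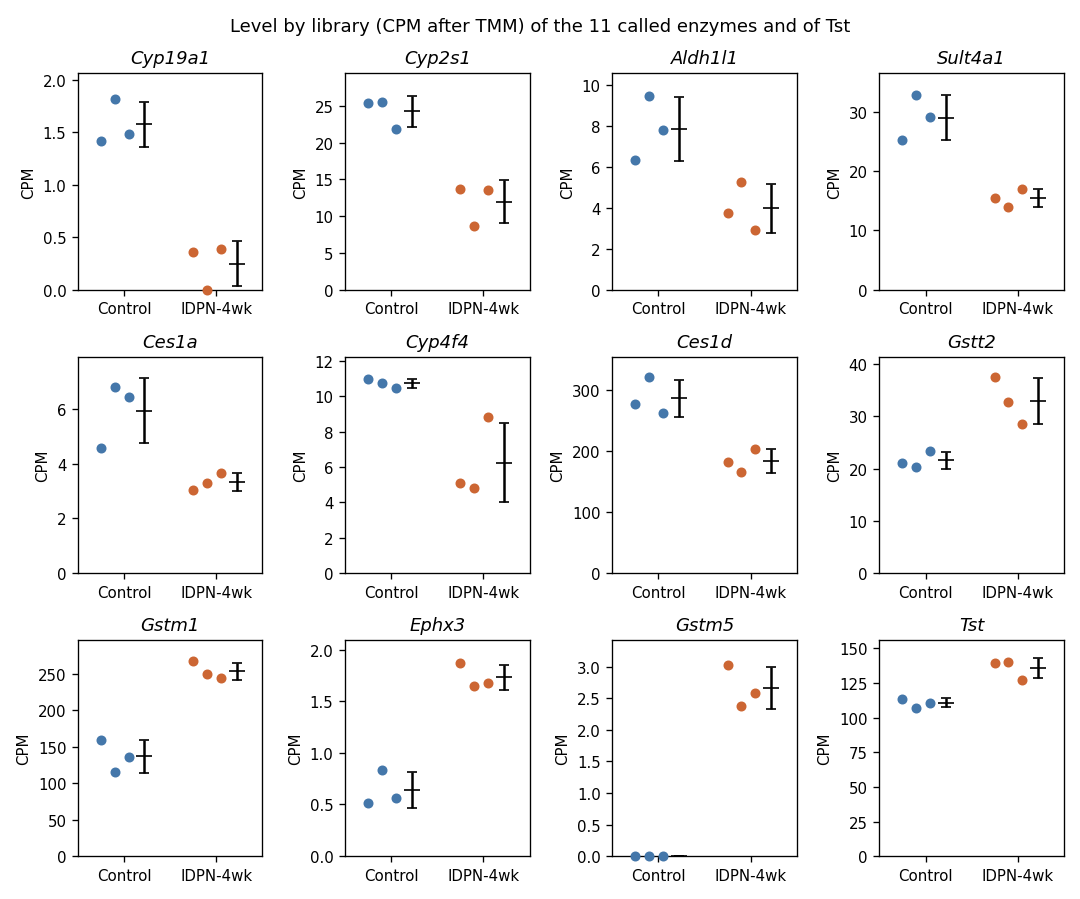
Level by library, in CPM on axes that start at 0, of the 11 called enzymes and of Tst, with control libraries in blue, IDPN-4wk libraries in orange and the mean ± SD (n = 3) in black. The groups do not overlap in any of the 12 genes, but 11 of these were picked because they were called. Over all genes tested, 37.8% did not overlap. Gstm5 is at 0 in all 3 control libraries.

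Enzymes able to oxidise small nitriles and amines were looked at because the exposure was to a nitrile. Cyp2e1, known for oxidising small organic molecules, had 1.23, 0.909 and 0.283 CPM in control epithelia, against 0.431, 1.91 and 1.55 CPM after IDPN. With 37 counts or fewer in any library the groups overlapped (log2-Fold change 0.70 ± 0.60 SE, edgeR Padj 0.461). With 1 library left out, its log2-Fold change ranged from 0.30 (control replicate 3 or IDPN-4wk replicate 2) to 1.13 (control replicate 1), and it was 1.076 when IDPN-4wk replicate 1 was the one left out. Flavin monooxygenases oxidise nitrogen and sulfur atoms, and 0 of the 4 tested were called, beside 9.71% of all genes. Fmo5 was at 28.1 ± 5.57 CPM in control epithelia, against 27.2 ± 1.63 CPM after IDPN (SD over n = 3 rats, log2-Fold change -0.05 ± 0.14 SE, edgeR Padj 0.841). For Fmo1 (log2-Fold change 0.21, SE 0.19) and Fmo4 (-0.45, SE 0.25) the edgeR Padj was 0.472 and 0.245. Fmo2 had 2.13 CPM in control replicate 1, which stood over the other 5 libraries, at 0.0708 to 0.708 CPM. Its log2-Fold change of -0.56 (SE 0.81, edgeR Padj 0.669) became 1.26 without that library (edgeR Padj 0.337).

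Neither of the cyanide enzymes was called. Tst had 114, 107 and 111 CPM in control epithelia, against 140, 140 and 127 CPM after IDPN, with every IDPN-4wk library over every control library. Its mean was 123% of the control level (log2-Fold change 0.30 ± 0.07 SE, edgeR Padj 0.0151), under the fold change threshold. Mpst, its neighbour in the genome, had 61.9, 62.7 and 72.3 CPM in control epithelia, against 67.1, 67.0 and 65.0 CPM after IDPN (log2-Fold change 0.02 ± 0.08 SE, edgeR Padj 0.915). The difference between the 2 changes was not tested. Other genes of cyanide, cysteine and sulfide metabolism gave 0 calls among 11 tested, and among these Cdo1, which oxidises cysteine, was just under the fold change threshold at -0.57 (edgeR Padj 0.00454).

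Aldehyde dehydrogenases oxidise aldehydes to acids. Of the 16 tested, 1 was downregulated and 0 upregulated, beside 6.62% and 3.09% of all genes. Aldh1l1, an enzyme of folate metabolism that is abundant in astrocytes, had 6.33, 9.44 and 7.79 CPM in control epithelia, against 3.74, 5.26 and 2.90 CPM after IDPN (log2-Fold change -0.97 ± 0.26 SE, edgeR Padj 0.0257). The call was lost without control replicate 2 (edgeR Padj 0.10), control replicate 3 (0.0669), and IDPN-4wk replicates 1 and 3 (0.0769 and 0.0591). Past Padj but not the fold change were 3 higher genes, Aldh1a1, Aldh1a3 and Aldh3a2, an enzyme of fatty aldehydes with a log2-Fold change of 0.23, at an edgeR Padj of 0.0345. The family sum was 2563 ± 150 CPM in control epithelia, against 2782 ± 94.3 CPM after IDPN (SD over n = 3 rats), with overlap that was absent with library size alone.

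Retinoid genes were followed across the enzymes and a list of transport, reduction and receptor genes. In this pathway STRA6 takes up retinol that RBP4 carries, retinaldehyde dehydrogenases of the Aldh1a group make retinoic acid, CYP26 enzymes break it down and the RAR and RXR receptors respond to it. Aldh1a1 had 340, 326 and 304 CPM in control epithelia, against 468, 419 and 458 CPM after IDPN (log2-Fold change 0.47 ± 0.08 SE, edgeR Padj 0.00172), which is 139% of control and under the fold change threshold. Aldh1a3 had a log2-Fold change of 0.31 ± 0.10 SE, at an edgeR Padj of 0.0441, and Aldh1a2 had -0.02 (SE 0.13, edgeR Padj 0.933). Summed over the 4 Aldh1a genes in the table, the level was 747, 682 and 628 CPM in control epithelia, against 907, 841 and 922 CPM after IDPN. Cyp26b1, which marks the central zones of vestibular organs during development, had 12.5, 16.6 and 11.4 CPM in control epithelia, against 10.6, 9.03 and 10.4 CPM after IDPN (log2-Fold change -0.44 ± 0.17 SE, edgeR Padj 0.106). No library had a count for Cyp26c1, and Cyp26a1 was removed by the filter.

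Of 13 other retinoid genes tested, 2 were downregulated and 3 upregulated, where 9.71% of all genes were called. The receptor gene Rarb, itself a known target of retinoic acid, fell from 101, 123 and 105 CPM in control epithelia to 46.7, 55.3 and 52.7 CPM after IDPN (log2-Fold change -1.09 ± 0.10 SE, edgeR Padj 5.25e-05). Rbp4 fell from 984 ± 139 to 535 ± 87.2 CPM (SD over n = 3 rats, log2-Fold change -0.88, edgeR Padj 8.97e-04). Stra6 rose from 18.0 ± 3.22 to 39.4 ± 5.63 CPM (SD over n = 3 rats, log2-Fold change 1.13, edgeR Padj 5.93e-04). Rarg rose by 0.67 on the log2 scale (edgeR Padj 9.71e-04), so that the receptors Rarb and Rarg moved in opposite directions. Dhrs9, a retinol dehydrogenase, rose at a low level from 0.526 ± 0.335 to 1.85 ± 0.620 CPM (SD over n = 3 rats, log2-Fold change 1.79, edgeR Padj 0.0326). Dhrs9 lost the call without control replicate 1 (edgeR Padj 0.107), control replicate 3 (0.120), and IDPN-4wk replicates 1 and 3 (0.112 and 0.0795). The other 8 genes of the list, among them the receptor gene Rara and the retinol dehydrogenase gene Rdh10, were not called. The cells of the tissue that express these genes were not resolved. The sums of supporting cell markers (10396 to 11520 CPM in control, 5788 to 7098 CPM after IDPN, 3 of 8 genes downregulated) and of HC markers (5 of 7 downregulated) also moved with treatment. Otog made the largest part of the supporting cell sum, at 6262 ± 363 CPM in control epithelia, against 3199 ± 561 CPM after IDPN (SD over n = 3 rats). Of the 8 supporting cell markers, 6 were lower and 2, Sox9 and Hes1, were higher. The part of these cells in the retinoid result was not tested.

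**Figure D4:**
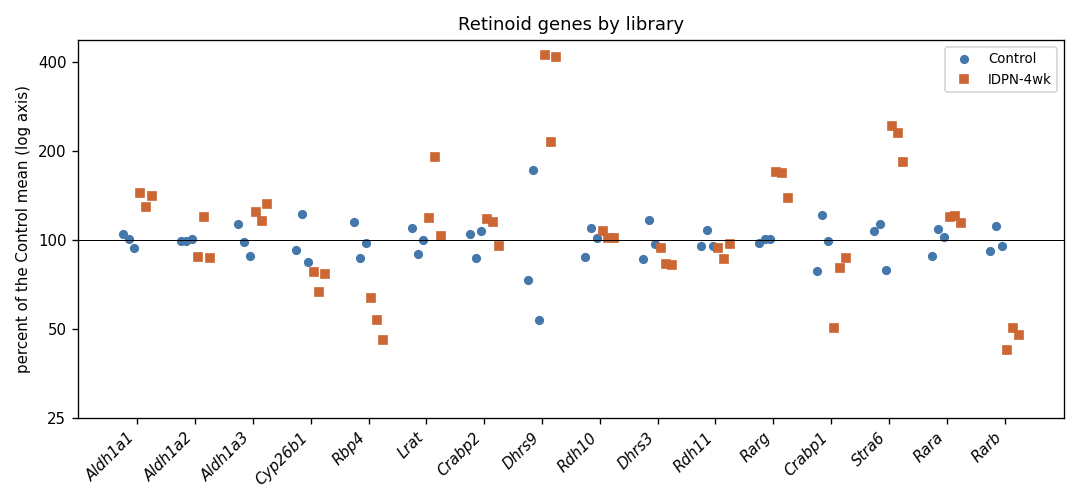
Level of retinoid genes by library as a percent of the control mean (vertical log axis), for 3 Aldh1a genes, Cyp26b1 and genes of the retinoid list along the horizontal axis, with control as blue circles and IDPN-4wk as orange squares. Rarb and Rbp4 lie under 100 and Stra6 and Rarg over 100 in every IDPN-4wk library.

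Carboxylesterases hydrolyse esters and amides. Of the 3 tested, Ces1d and Ces1a were downregulated, as were 6.62% of all genes. Ces1d (ENSRNOG00000015519) had 276, 320 and 261 CPM in control epithelia, against 181, 164 and 203 CPM after IDPN, without overlap (log2-Fold change -0.64 ± 0.10 SE, edgeR Padj 0.00130). It was under the fold change threshold with library size alone (-0.53) and when control replicate 2 (-0.56) or IDPN-4wk replicate 2 (-0.57) was left out, while its edgeR Padj was at most 0.0100 without any library. Ces1a had 4.58, 6.78 and 6.44 CPM in control epithelia, against 3.02, 3.30 and 3.67 CPM after IDPN (log2-Fold change -0.83 ± 0.24 SE, edgeR Padj 0.0362), and lost the call without control replicate 2 (edgeR Padj 0.122), control replicate 3 (0.109), and IDPN-4wk replicates 1 and 2 (0.0999 and 0.0876). Ces1f was at 10.4 ± 0.391 CPM in control epithelia, against 10.7 ± 4.31 CPM after IDPN (SD over n = 3 rats). The Ces1 genes are close copies, and their sum was 302 ± 31.5 CPM in control epithelia, against 197 ± 22.5 CPM after IDPN (SD over n = 3 rats). All 6 genes of the Ces2 group were untested, with a sum of 0.779 CPM or less in each library.

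Epoxide hydrolases open epoxides with water. Ephx1, the microsomal enzyme of foreign epoxides, was at 502 ± 42.5 CPM in control epithelia, against 532 ± 76.8 CPM after IDPN (SD over n = 3 rats, log2-Fold change 0.08, edgeR Padj 0.617), and its sign turned without IDPN-4wk replicate 3 (-0.05). Ephx3, which acts on fatty acid epoxides, had 0.517, 0.839 and 0.566 CPM in control epithelia, against 1.87, 1.65 and 1.67 CPM after IDPN, at 32 counts or fewer (log2-Fold change 1.42 ± 0.39 SE, edgeR Padj 0.0275). Although the groups were far apart, Ephx3 was not called by DESeq2 (DESeq2 Padj 0.0668), and of the 6 fits that left out 1 library it kept the edgeR call only without control replicate 2. The edgeR Padj was 0.101 and 0.0994 without control replicates 1 and 3, and 0.0914, 0.0713 and 0.0521 without IDPN-4wk replicates 1, 2 and 3. Ephx2, the soluble enzyme, had a log2-Fold change of 0.69, at an edgeR Padj of 0.111, and Ephx4 had -0.97 (edgeR Padj 0.0757), which was downregulated without IDPN-4wk replicate 3 (-1.34, edgeR Padj 0.0296).

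Sulfotransferases gave 1 downregulated gene of 6 tested, beside 6.62% of all genes. Sult4a1 (ENSRNOG00000046975), a family member known mainly from neurons, had 25.2, 32.8 and 29.1 CPM in control epithelia, against 15.5, 14.0 and 16.9 CPM after IDPN. It fell to 53.3% of the control level (log2-Fold change -0.91 ± 0.13 SE, edgeR Padj 0.00103) and was downregulated in each fit that left out 1 library, from -1.001 to -0.81. Of 7 neuron markers, 2 were downregulated and 2 upregulated, none was at 0 in all libraries, and their sum was 102 to 107 CPM in control epithelia, against 63.9 to 67.7 CPM after IDPN. The part of neuronal RNA in the Sult4a1 result was not tested. Sult5a1 had 73.9, 92.6 and 87.2 CPM in control epithelia, against 108, 127 and 106 CPM after IDPN (log2-Fold change 0.43, edgeR Padj 0.0138), under the fold change threshold. Sult1d1, at 3.80 CPM or less, had a log2-Fold change of 1.06 ± 0.36 SE, at an edgeR Padj of 0.0604, and it was upregulated with library size alone (edgeR Padj 0.0350) and without IDPN-4wk replicate 2 (edgeR Padj 0.0423).

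Of the glucuronosyltransferases only Ugt8 and Ugt1a7c were tested, and neither was called. Ugt8 does not act on foreign compounds: it makes galactosylceramide, a lipid of myelin. It had 120, 99.1 and 107 CPM in control epithelia, against 84.7, 54.1 and 93.4 CPM after IDPN (log2-Fold change -0.50 ± 0.17 SE, edgeR Padj 0.0586), and it was downregulated without IDPN-4wk replicate 3 (-0.67, edgeR Padj 0.0184). The lowest library, IDPN-4wk replicate 2, was also the lowest for 6 of 8 Schwann cell markers, among them Mbp and Pmp22, and for the other two, the transcription factor genes Sox10 and Egr2, it lay over every control library. The 8 markers, of which 1 was downregulated and none was at 0 in all libraries, summed to 8489 to 10730 CPM in control epithelia, against 5800 to 8698 CPM after IDPN, and their part in the Ugt8 value was not tested. Ugt1a7c, which conjugates phenols, was at 11.0 ± 2.58 CPM in control epithelia, against 9.60 ± 0.725 CPM after IDPN (SD over n = 3 rats, edgeR Padj 0.499).

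Some enzymes varied widely within a group. Of the 64 enzymes with a mean of at least 5 CPM, the highest control library was over 2 times the lowest in 4, and the same held for 2 in IDPN-4wk libraries, while the median of this ratio was 1.22 and 1.18. Cyp1a1, the classical target of the aryl hydrocarbon receptor, had 57.1 CPM in control replicate 1 and 17.2 and 12.8 CPM in the other controls, with 24.0, 30.1 and 28.3 CPM after IDPN. Sult1a1, a sulfotransferase of phenols, had the same order in control, at 38.8, 13.1 and 11.8 CPM, with 20.6, 28.0 and 29.7 CPM after IDPN. Neither was called in the 6 libraries (Cyp1a1 log2-Fold change -0.08, edgeR Padj 0.913, and Sult1a1 0.29, edgeR Padj 0.621). Without control replicate 1 both were upregulated, Cyp1a1 by 0.87 (edgeR Padj 0.00704) and Sult1a1 by 1.07 (edgeR Padj 0.00351), so the result for these genes turned on a single library. These genes were chosen after their values were seen.

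Control replicate 1 was also the highest library for Cyp1a2, at 157 CPM beside 121 and 85.4 CPM in the other controls and 79.4, 81.2 and 95.5 CPM after IDPN. Cyp1a2, the neighbour of Cyp1a1, had a log2-Fold change of -0.50 ± 0.17 SE, at an edgeR Padj of 0.0668. The log2-Fold change was -0.27 without control replicate 1 (edgeR Padj 0.227) and -0.70 without control replicate 3 (edgeR Padj 0.00662), where it was downregulated. Gsta1 was low in control replicate 2, at 121 CPM beside 278 and 260 CPM, with 160, 235 and 217 CPM after IDPN. Aldh18a1, an enzyme of proline synthesis, ranged from 8.05 to 45.4 CPM within the IDPN-4wk group and from 20.2 to 41.8 CPM within control. In Ces1f the 3 control libraries lay between 10.1 and 10.8 CPM and the IDPN-4wk libraries between 5.88 and 14.2 CPM.

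**Figure D5:**
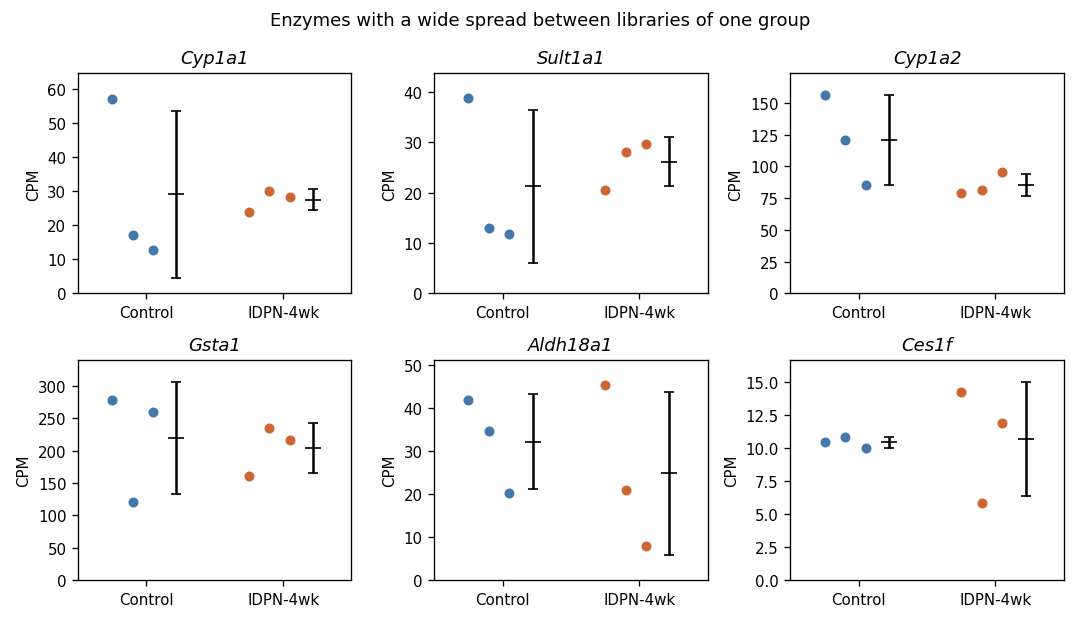
Level by library, in CPM on axes that start at 0, of 6 enzymes with a wide spread within a group, with control libraries in blue, IDPN-4wk libraries in orange and the mean ± SD (n = 3) in black. Control replicate 1, the first blue point, is the highest library in Cyp1a1, Sult1a1, Cyp1a2 and Gsta1.

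Genes that work with these enzymes were read from 7 lists, which included the retinoid genes above. Of 74 tested, 3 were downregulated and 5 upregulated, which is 10.8%, beside 9.71% of all genes. Outside the retinoid list the called genes were Rxra, Rxrg and Nqo1. Among 9 sensors, Rxra, the partner of several nuclear receptors, had 19.2, 21.0 and 17.3 CPM in control epithelia, against 6.11, 8.98 and 12.7 CPM after IDPN (log2-Fold change -1.04 ± 0.22 SE, edgeR Padj 0.00832). Rxrg was at 3.43 ± 0.473 CPM in control epithelia, against 5.73 ± 0.465 CPM after IDPN (SD over n = 3 rats, log2-Fold change 0.74, edgeR Padj 0.0440), and lost the call in every fit that left out 1 library, with edgeR Padj 0.1235, 0.0620 and 0.106 without control replicates 1, 2 and 3 and 0.122, 0.0711 and 0.0902 without IDPN-4wk replicates 1, 2 and 3. The receptor gene Ahr (log2-Fold change -0.56, edgeR Padj 0.00648) and Nfe2l2, which encodes NRF2 (0.35, edgeR Padj 0.00909), passed Padj but not the fold change. Of 14 other phase I enzymes, Nqo1, a quinone reductase and known target of NRF2, rose from 14.1 ± 1.58 to 23.5 ± 1.71 CPM (SD over n = 3 rats, log2-Fold change 0.74 ± 0.13 SE, edgeR Padj 0.00290). None was called among the 6 electron donors of P450 enzymes, the 14 other conjugation and glutathione supply enzymes and the 7 efflux transporters. Por, the reductase that feeds electrons to microsomal P450 enzymes, had a log2-Fold change of 0.11, at an edgeR Padj of 0.430. At an edgeR Padj under 0.05, 4 phase I genes, Akr1a1 (0.35, edgeR Padj 0.00834), Maob (0.47, edgeR Padj 0.0159), Aox1 (0.35, edgeR Padj 0.0254) and Pon2 (-0.29, edgeR Padj 0.0201), passed without the fold change. So did a single conjugation gene, Ggt7 (0.48, edgeR Padj 0.0321), and 2 transporter genes, Abcc1 (-0.28, edgeR Padj 0.0420) and Abcc5 (-0.39, edgeR Padj 0.0231).

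Further cell types that the dissected tissue could hold were measured by their markers. Sums were 117 to 165 CPM in control epithelia, against 79.2 to 150 CPM after IDPN for 8 macrophage and leukocyte genes (1 downregulated, 1 upregulated), 603 to 771 and 485 to 518 CPM for 6 melanocyte and dark cell genes (1 downregulated), 315 to 413 and 293 to 346 CPM for 5 endothelium genes (0 called), 858 to 1039 and 818 to 923 CPM for 6 stroma genes (1 downregulated, 1 upregulated) and 95.3 to 113 and 110 to 221 CPM for 3 red blood cell genes (1 upregulated). None of these markers was at 0 in all libraries, and their part in the enzyme results was not tested.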

How the data were processed

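Vestibular epithelia of 3 control and 3 IDPN-4wk rats were sequenced after oligo-dT primed SMART-seq2 amplification. The authors mapped paired-end reads to the rat genome Rnor6.0 with STAR (2.5.3a in the submitters' processing notes) and deposited expected counts per gene from RSEM (1.3.0 in the same notes). All deposited values were whole numbers. RSEM divides reads among similar genes, which makes single members of close families uncertain, and the protocol does not keep the strand. The enzymes and gene lists were chosen with earlier results of these data known.

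Groups were taken from the treatment label, and replicates were numbered by accession order. After filterByExpr (at least 10 counts, at least 15 in total) 14352 genes remained. They were scaled by TMM, and the groups were tested by quasi-likelihood in edgeR 4.0.16 (R 4.3.3). SE was taken from the quasi F statistic, and CPM are counts scaled after TMM. DESeq2 1.42.0, glmTreat, other scalings, no filter and leaving out each library were alternatives. Scripts were tested on simulated data. The study's own design used DESeq2 with the same thresholds. No p is given for sums over enzymes, since 3 animals against 3 cannot go below an exact permutation p of 0.1. Depth was 13358678 to 18561991 counts per library, without molecular identifiers, so that limits from a count of 0 cover counting error only.

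Named were every called enzyme, Tst and Mpst, the enzyme of highest mean CPM in each family, the 10 of smallest p among the 15 past Padj but not the fold change, Cyp2e1 and the tested Fmo genes, and the called genes of the pathway lists. Others were chosen after their values were seen. Some genes of the retinoid and marker lists are counted but not reported here. RefSeq tables of build GRCr8 gave promoters and gene order and no coordinates of the counts. Of the 158 symbols, 153 were in them.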

Additional observations from a re-analysis of the deposited data

How the results depend on the processing

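No paired analysis was possible because the labels give no replicate numbers. Downregulated enzymes numbered 7, and 8 with DESeq2, 8 with DESeq2 size factors, 7 without the filter, 5 with library size alone and 0 with glmTreat. Upregulated enzymes numbered 4, and 3, 4, 4, 6 and 1 in the same order. Leaving out 1 library gave from 2 (without control replicate 2) to 8 downregulated and from 2 (without IDPN-4wk replicate 1) to 5 upregulated enzymes. Without IDPN-4wk replicate 1 there were 4 downregulated enzymes. Cyp2s1, Gstm1 and Sult4a1 kept their calls in 10 of 11 alternatives, all except glmTreat. Gstm5 did so in all 11, but it passed the main filter on low counts only through the IDPN-4wk group. The calls of Gstm5 are therefore given as a description. All genes called lower and higher were 354 and 99 with glmTreat, and 780 and 762 with library size alone in place of 950 and 444. With library size alone 50.6% of all calls were lower, in place of 68.1%, and all genes together had a median of 0.13 in place of 0.02. The median over enzymes was then 0.12, and from -0.0162 (without control replicate 2) to 0.0769 (without control replicate 1) when 1 library was left out. Higher calls in the pathway lists numbered 1 with glmTreat, 7 with library size alone and from 3 to 4 with 1 library left out, and lower calls 1 with glmTreat and from 3 to 4. Family sums with library size alone were 117% of control for Aldh, 124% for Tst and Mpst and 105% for Fmo, in place of 109%, 115% and 97.0%. Values near 0 changed sign: Cyp1b1 was 0.0527 and Fmo5 was 0.0583 with library size alone. With 1 library left out, log2-Fold changes ranged from -0.20 to 0.00777 for Cyp1b1, -0.0506 to 0.16 for Ephx1, -1.09 to 1.26 for Fmo2, -0.18 to 0.11 for Fmo5 and -0.0254 to 0.0904 for Mpst. The causes were not tested, except that glmTreat sets a stricter null hypothesis and a fit without 1 library has fewer samples. Depth limits the genes of few counts, such as Cyp19a1, Ephx3 and Cyp2e1.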
